A study of Mus musculus with 8 samples.

Results

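The genes described here encode the pyruvate dehydrogenase complex and the enzymes that switch it off and on: 4 kinases (Pdk1, Pdk2, Pdk3 and Pdk4), 2 phosphatases (Pdp1 and Pdp2) and the catalytic subunits Pdha1, Pdhb, Dlat and Dld. They were taken by gene symbol from the table of expected counts. All 10 were among its 23504 symbols, and all 10 passed the filter on low counts, as did 14711 symbols in all. RNA of the renal cortex, dissected from the outer part of the kidney, was sequenced from wild-type C57Bl6/J mice on a high fat diet (4 libraries, A, B, F and G) or a control diet (4 libraries, I, J, L and M). Both groups started their diet at 6 weeks of age and stayed on it for 9 weeks, to an age of 15 weeks. The study asked which genes differ in expression between the diets. What the diets contained is not stated in the sources used here. Nothing says either whether the 4 libraries of a diet stem from 4 mice, so p-values cover the spread between libraries, which may be technical.

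The pyruvate dehydrogenase complex sits in the mitochondrial matrix and turns pyruvate into acetyl-CoA, a step that mammalian cells cannot reverse. Its kinases phosphorylate the alpha subunit of the pyruvate decarboxylase and so stop the complex, and its phosphatases remove the phosphate and restart it. Pdk4 is a kinase known to be induced by fasting and fatty acids, which spares glucose and pyruvate while fat is burned. The proximal tubule, the main cell type of the cortex, is known to live largely on fatty acids and to make glucose from lactate and other precursors.

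Levels are given as CPM, the normalized count per 1e6 counts of a library, computed without Rn45s, the ribosomal RNA precursor. Rn45s took 50.3% of the counts of control J and 1.23% to 13.3% of those of the other libraries. Without it the libraries held 13993652 counts (control J) to 30403685 (control M). Proximal tubule markers summed to 26256 to 27386 CPM on the high fat diet and 25345 to 27669 on the control diet. Of these 8 markers, the phosphate transporter gene Slc34a1 rose by 0.33 on the log2 scale and the endocytic receptor gene Cubn fell by 0.26 (edgeR adjusted p = 0.0495 and 0.0182), and 6 did not pass. Distal nephron markers summed to 3975 to 4727 CPM on the high fat diet and 4732 to 5112 on the control diet, with 1 of 6 called, Slc12a1, which fell. The part of this difference in the results below was not tested. In bulk tissue, fewer cells of a type and less RNA per cell cannot be told apart.

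Pdk4 rose on the high fat diet and was the member with the largest change, Pdk3 rose by less, and the other 8 genes did not pass. Of 10 members, 2 were called, both higher, at an adjusted p below 0.05 in edgeR's quasi-likelihood F test, with the Benjamini-Hochberg adjustment taken over all tested genes. Over all tested genes, 9.99% were called, 4.86% as higher and 5.13% as lower. The 4 values of each diet did not overlap for the same 2 members, against 17.5% of all tested genes (8.31% with the high fat values on top). The median log2 change of the 10 members was 0.017, and that of all tested genes was -0.0023.

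Pdk4 (chromosome 6, 5483351 to 5496309, minus strand, GRCm38) lay at 10.3 CPM in control I, 7.86 in J, 4.80 in L and 5.37 in M. On the high fat diet it lay at 37.2 CPM in library A, 58.4 in B, 17.8 in F and 21.7 in G. Each high fat library was above each control library, the nearest pair being high fat F and control I, which differed by 1.72-fold. The means were 33.8 ± 18.4 and 7.09 ± 2.53 CPM (SD, n = 4 for each), and the log2 fold change was 2.27 ± 0.37 (SE; edgeR adjusted p = 0.0059). That is a 4.83-fold rise, with a 95% interval of 2.74 to 8.51, and the 11th largest rise among the 14711 genes tested (0.0748% had one at least as large, and 1.24% had an adjusted p no larger). Pdk4 was also the most variable member: its 4 high fat libraries spanned 3.28-fold, with A and B above F and G, and its coefficient of variation was 54.6% on the high fat diet and 35.8% on the control diet. For the other 9 members this coefficient ran from 1.79% (Dlat, high fat) to 19.4% (Pdp1, control). The values rest on 101 expected counts of Pdk4 in control J to 1253 in high fat B. Leaving out any single library kept the call, with log2 fold changes from 1.87 without high fat B to 2.54 without control I.

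Skeletal muscle, heart and fat are known for high Pdk4, so their markers were read in the same libraries. The 10 muscle markers summed to 1.35 to 2.53 CPM in the high fat libraries and to 2.26 to 11.2 in the control libraries, where control M was the highest. Ckm, the muscle creatine kinase gene, had means of 0.0117 CPM on the high fat diet and 0.0650 on the control diet. Of the 7 white fat markers the adiponectin gene Adipoq had means of 0.0218 and 0.0879 CPM, and the list summed to 6.95 to 9.78 CPM on the high fat diet and 6.17 to 8.33 on the control diet. The brown fat list summed to 7.97 to 10.4 CPM on the high fat diet and 7.10 to 10.97 on the control diet, and no muscle or fat marker was called among the 4 that could be tested. Liver markers summed to 21.9 to 33.3 CPM against 21.2 to 31.2, adrenal markers to 4.10 to 6.55 against 5.78 to 7.20 with Cyp11b1 and Cyp11b2 at 0 in all 8 libraries, and podocyte markers to 275 to 305 against 295 to 324. Most of the white fat sum was Plin4, with means of 8.12 CPM on the high fat diet and 6.54 on the control diet. Cox7a1 made up most of the brown fat sum (8.89 and 8.82) and Star most of the adrenal sum (5.72 and 6.18). Red cell markers stood apart in high fat G, at 2300 CPM against 373 to 871 in the other libraries.

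**Figure D1:**
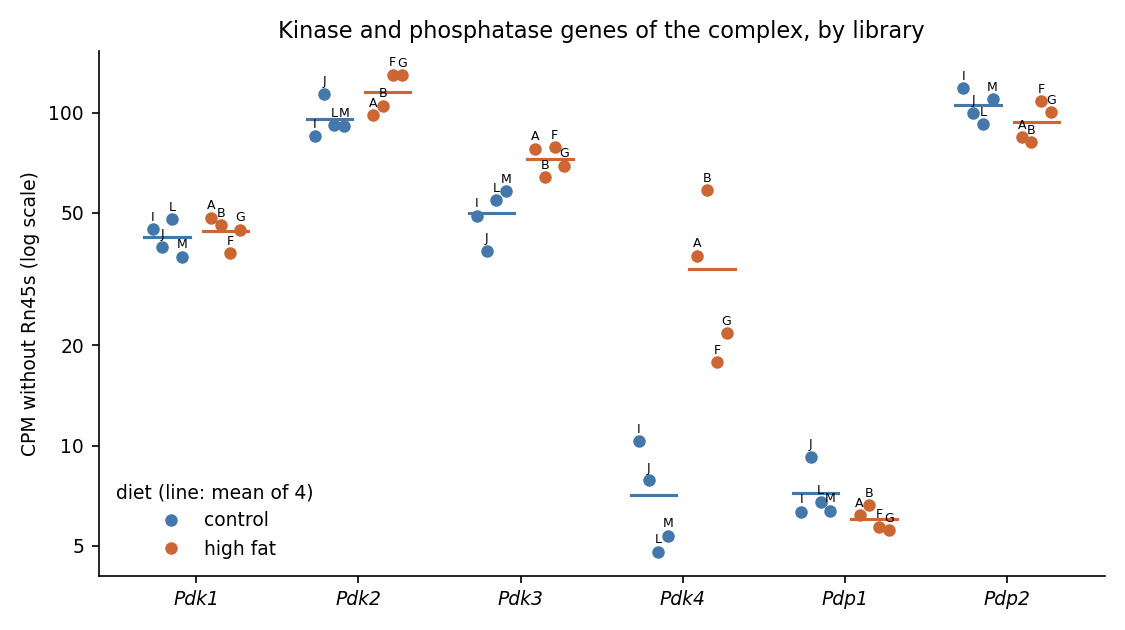
Normalized level (CPM without Rn45s, log scale) of the kinase genes Pdk1 to Pdk4 and the phosphatase genes Pdp1 and Pdp2 in each of the 8 libraries, each point a library named by its letter and each line the mean of 4. The 4 high fat points of Pdk4, from 17.8 to 58.4 CPM, all lie above its control points, from 4.80 to 10.3, and the same holds for Pdk3.

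Pdk3 (X chromosome, 93764607 to 93832201, minus strand), a kinase isoenzyme first known from testis and brain, lay at 49.0 CPM in control I, 38.5 in J, 54.6 in L and 58.0 in M. On the high fat diet it lay at 77.9 CPM in A, 64.0 in B, 78.7 in F and 69.3 in G. All high fat libraries were again above all control libraries, and control J was the lowest of all. The means were 72.5 ± 7.06 and 50.03 ± 8.54 CPM (SD, n = 4 for each), a log2 fold change of 0.53 ± 0.11 (SE), or 1.44-fold with a 95% interval of 1.21 to 1.71 and adjusted p = 0.0175 in edgeR. In the authors' deposited table of gene symbols Pdk3 had a fold of 1.45 and a posterior probability of equal expression of 0.0117. That table lists 1133 genes, and the authors' other one, by Ensembl gene, lists 1175. Pdk3 was the only member in either, so Pdk4 was in neither. The call of Pdk3 ended without control I, where edgeR's adjusted p was 0.05004.

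Pdk2 (chromosome 11, 95026258 to 95041354, minus strand), the most widely expressed kinase of the family, had the highest level per length of the 4 in every library. It lay at 85.1 CPM in control I, 114 in J, 91.6 in L and 91.4 in M, and at 98.1 CPM in high fat A, 105 in B, 130.0 in F and 129.7 in G. Control J lay within the high fat values, so the diets overlapped. The log2 fold change was 0.28 with a 95% interval of 0.04 to 0.52, and Pdk2 did not pass (adjusted p = 0.13 in edgeR). Among the high fat libraries, F and G were the highest for Pdk2 and the lowest for Pdk4, while B lay above A for both genes. Gm11513, an annotated antisense gene, overlaps Pdk2, and whether the counting used strand is not stated in the sources used here.

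Pdk1 (chromosome 2, 71873224 to 71903858, plus strand), the isoenzyme known to respond to hypoxia, ranged from 36.9 to 47.8 CPM on the control diet and from 37.8 to 48.3 on the high fat diet. These ranges lay almost on top of each other. Its log2 fold change was 0.06 with a 95% interval of -0.15 to 0.27 (adjusted p = 0.72 in edgeR).

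Pdk4 and Pdk3 rose and Pdk1 and Pdk2 did not pass, and the stretches before their start sites are shown to compare the sequence that lies there. Each is the 190 bases from 250 to 61 bases before the most upstream RefSeq start of the gene (RefSeq on GRCm38.p6), 5′ to 3′ on the strand of the gene, with CpG dinucleotides in capitals.
Pdk4, chr6:5496339-5496528, minus strand: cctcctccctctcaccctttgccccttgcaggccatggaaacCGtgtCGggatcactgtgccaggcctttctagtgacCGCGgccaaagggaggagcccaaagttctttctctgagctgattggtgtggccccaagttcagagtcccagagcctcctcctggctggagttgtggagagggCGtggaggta
Pdk3, chrX:93832211-93832400, minus strand: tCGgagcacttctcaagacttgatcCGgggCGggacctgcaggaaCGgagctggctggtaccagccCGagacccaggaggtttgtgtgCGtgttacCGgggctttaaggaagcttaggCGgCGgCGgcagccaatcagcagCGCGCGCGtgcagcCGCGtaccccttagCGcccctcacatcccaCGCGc
Pdk2, chr11:95041432-95041621, minus strand: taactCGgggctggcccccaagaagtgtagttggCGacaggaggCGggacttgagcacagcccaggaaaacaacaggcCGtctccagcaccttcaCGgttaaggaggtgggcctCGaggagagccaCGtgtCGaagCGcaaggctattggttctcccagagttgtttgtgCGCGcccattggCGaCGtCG
Pdk1, chr2:71872974-71873163, plus strand: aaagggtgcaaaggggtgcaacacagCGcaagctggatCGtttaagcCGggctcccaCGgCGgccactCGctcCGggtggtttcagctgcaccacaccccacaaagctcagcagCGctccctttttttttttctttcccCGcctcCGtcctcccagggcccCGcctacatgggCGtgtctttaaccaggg
The window of Pdk4 held 5 CpGs, against 19 for Pdk3, 14 for Pdk2 and 12 for Pdk1. Over the windows of 27025 genes the median was 4 CpGs, and 59.5% of them held as few as Pdk4, against 92.3%, 84.6% and 80.3% for the other 3. The GC content was highest for Pdk3, at 65.8%, and lay at 60.0% for Pdk4, 60.5% for Pdk2 and 61.1% for Pdk1. On either strand, Pdk4, Pdk3 and Pdk2 held the CCAAT box (CCAAT), which 27.2% of all windows hold, 131 bases before the start in Pdk4 and 120 in Pdk3. None of the 4 windows held the nuclear receptor motif AGGTCA (in 10.6% of all windows), the longer estrogen-related receptor site TCAAGGTCA that contains it (0.292%), the FOXO site TGTTTAC (2.42%) or the TATA box TATAAA (9.08%). The E-box CACGTG, in 4.07% of all windows, was held by Pdk2. A missing match says only that these letters are not in this window. The window ends 61 bases before the start, so a TATA box nearer the start would be missed.

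To test whether the rise of Pdk4 was larger than that of each other kinase, the log2 ratio of their normalized counts was taken within each library, which removes the scaling of the library. The ratio of Pdk4 over Pdk2 was higher on the high fat diet by 1.89, that over Pdk1 by 2.10 and that over Pdk3 by 1.62. In each of the 3 ratios, 4 of 4 high fat libraries lay above all control libraries (exact two-sided permutation p = 0.0286 for each, also after adjustment over the 3 ratios). This is the smallest p that 70 splits of 8 libraries can give, and the adjustment leaves 3 equal p-values as they are. The ratio over Pdk2 ran from -2.87 to -0.84 on the high fat diet and from -4.25 to -3.04 on the control diet. The 4 kinases share no stretch of 50 bases among their GENCODE M21 transcripts, so reads of that length would separate them.

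**Figure D2:**
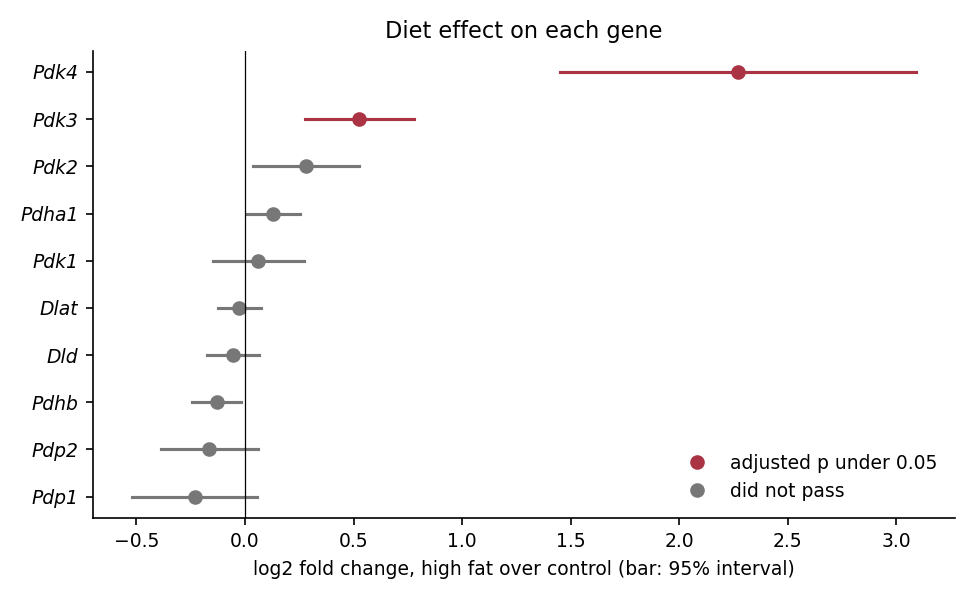
Log2 fold change of each of the 10 members, high fat over control, with its 95% interval from the edgeR fit. Pdk4, at 2.27, and Pdk3, at 0.53, are the 2 members with an adjusted p under 0.05, and the other 8 lie between -0.23 and 0.28.

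Levels of different genes were compared per length, as FPKM rescaled to 1e6 per library without Rn45s. On the control diet Pdk4, at 4.04 ± 1.41, was the lowest kinase, below Pdk1 at 16.2 ± 1.995, Pdk3 at 50.5 ± 11.01 and Pdk2 at 84.0 ± 7.501 (SD, n = 4 for each). On the high fat diet Pdk4 reached 19.3 ± 9.74, beside Pdk1 at 17.1 ± 1.44, and it was above Pdk1 in 2 of 4 libraries. Pdk4 thus drew level with Pdk1 within the spread of the libraries and stayed below Pdk3 and Pdk2, at 73.6 ± 9.19 and 103.6 ± 18.3 (SD, n = 4 for each).

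As a share of the summed FPKM of the 4 kinases, Pdk4 made up 4.02% in control I, 2.84% in J, 1.74% in L and 1.97% in M. It made up 10.4% in high fat A, 16.1% in B, 4.67% in F and 5.84% in G. Its share was thus above all control libraries in each high fat library, by a small margin in F. The share of Pdk2 went from 54.4 ± 5.94% to 48.3 ± 5.67% and that of Pdk3 from 32.5 ± 5.67% to 34.4 ± 3.32% (SD, n = 4 for each). Summed over the 4 kinases the level per length was 213.5 ± 13.7 on the high fat diet and 154.8 ± 8.69 on the control diet (SD, n = 4 for each). Its lowest high fat value, 199 in B, was above its highest control value, 166 in M. Of that difference in means, 39.2% came from Pdk3, 33.3% from Pdk2, 25.95% from Pdk4 and 1.51% from Pdk1. Pdk4 gave less than Pdk3 with all libraries and with any single library left out. Its place against Pdk2 rested on single libraries: Pdk4 gave 33.8% and Pdk2 26.1% without high fat F, and 30.9% and 25.9% without high fat G. Without high fat B the part of Pdk4 was 17.2%. These fits were chosen after the data were seen. These sums are descriptions with no test.

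**Figure D3:**
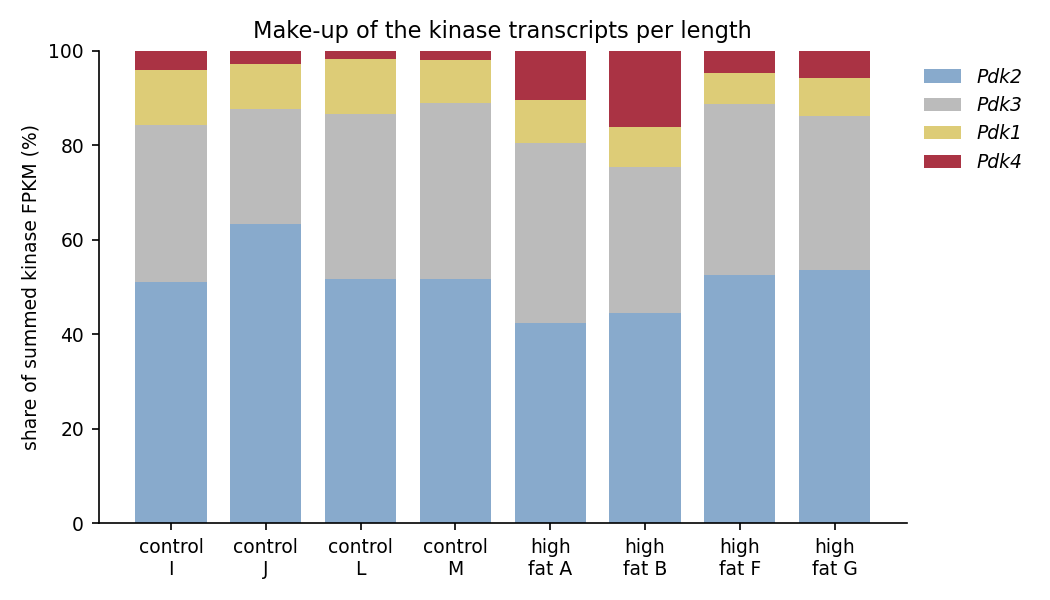
Share of each kinase in the summed FPKM of Pdk1 to Pdk4 in each library, as stacked bars that add up to 100%. The Pdk4 segment is 1.74% to 4.02% in the 4 control libraries and 4.67% to 16.1% in the 4 high fat libraries.

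The share of all tested genes called moved with the fit, while the count of members called was 2 of 10 or 1 of 10. It was 2 with DESeq2 size factors (9.67% of all genes called), DESeq2's own test (12.5%), limma-voom (9.87%), every gene with counts tested (7.26%), Rn45s kept (9.98%), genes averaging 5 CPM or more (12.5%), a robust fit (10.1%) and an adjusted p below 0.1 (17.3%). It was also 2 with high fat A (6.3%), B (7.9%), F (4.99%) or G (6.14%) or control J (5.4%, of which 2.84% rose and 2.55% fell), L (6.72%) or M (10.3%) left out, and with control J and high fat G both left out (2.83%, of which 1.66% rose and 1.17% fell). It was 1, Pdk4, without control I (5.37%), at an adjusted p below 0.01 (2.24%), and in limma on deposited FPKM with pseudocounts of 0.1 (0.69%) and 1 (0.743%) and on rescaled FPKM (5.67%).

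The phosphatases did not pass. Pdp2 (chromosome 8, 104591451 to 104599026, plus strand), known as the form that does not need calcium, ranged from 92.1 to 118 CPM on the control diet and from 81.5 to 108 on the high fat diet. Its log2 fold change was -0.17 with a 95% interval of -0.39 to 0.06 (adjusted p = 0.32 in edgeR). Like Pdk2, it was higher in high fat F and G than in A and B. Pdp1 (chromosome 4, 11958184 to 11966452, minus strand), the calcium-stimulated form, was scarce, at 6.33 CPM in control I, 9.26 in J, 6.77 in L and 6.38 in M and from 5.56 to 6.62 on the high fat diet. Its log2 fold change was -0.23 with a 95% interval of -0.52 to 0.06 (adjusted p = 0.28 in edgeR). Per length, Pdp2 made up 94.5% of the summed phosphatase FPKM on the control diet and 94.8% on the high fat diet. The ratio of summed kinases to summed phosphatases per length was 3.81 ± 0.37 on the high fat diet and 2.48 ± 0.31 on the control diet (SD, n = 4 for each). It ran from 3.42 to 4.22 and from 2.11 to 2.83, with no overlap between the diets. The kinase sum in this ratio did not overlap by itself, and the ratio was not tested. This is a ratio of transcripts and says nothing of protein or enzyme activity.

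The 4 catalytic subunits did not pass, and the 95% intervals of their log2 fold changes all lay between -0.24 and 0.25. Pdha1 (X chromosome, 160122209 to 160138413, minus strand), the alpha subunit of the decarboxylase that the kinases phosphorylate, lay at 641 CPM in high fat A, 695 in B, 626 in F and 667 in G. On the control diet it lay at 632 CPM in I, 600.4 in J, 588 in L and 581 in M. High fat F fell just below control I, so the diets overlapped, and the log2 fold change was 0.13 with a 95% interval of 0.01 to 0.25 (adjusted p = 0.15 in edgeR). Pdhb (chromosome 14, 8165996 to 8173025, minus strand), the beta subunit of the same enzyme, ranged from 121 to 128 CPM on the high fat diet and from 127 to 143 on the control diet. Its log2 fold change was -0.13 with a 95% interval of -0.24 to -0.02 (adjusted p = 0.13 in edgeR). The subunits of this enzyme thus lay on opposite sides of 0. Per length, the level of Pdha1 was 2.65 to 2.93 times that of Pdhb in the high fat libraries and 2.16 to 2.46 times in the control libraries. That ratio was chosen after the values were seen and was not tested.

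Dlat (chromosome 9, 50634633 to 50659780, minus strand), the acetyltransferase core, ranged from 158 to 165 CPM on the high fat diet and from 163 to 170.4 on the control diet, a log2 fold change of -0.03 with a 95% interval of -0.13 to 0.07. Dld (chromosome 12, 31331277 to 31351453, minus strand), the dihydrolipoyl dehydrogenase that other complexes share, ranged from 274 to 304 CPM and from 279 to 308, a log2 fold change of -0.05 with a 95% interval of -0.18 to 0.07. Neither passed (adjusted p = 0.74 and 0.56 in edgeR). The order of the 4 subunits per length was Pdha1, Dld, Pdhb and Dlat on both diets, with no overlap between neighbours in that order. Reads of 3 subunits are open to some sharing with other genes: 12.9% of the stretches of 50 bases of Pdha1 transcripts also lie in other genes, mostly in Map3k15, which overlaps Pdha1 on the other strand. For Pdhb the share is 11.4%, mostly in Gm6123, and for Dld it is 2.34%. Among the regulators it is 1.40% for Pdk4, in Atg4c, Lpl, Pou1f1 and others, and 0.0709% for Pdp2. Map3k15 had a log2 fold change of 0.17 and did not pass (adjusted p = 0.0851 in edgeR).

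Of the 8 listed partners of the complex, 7 could be tested and 1 rose, beside 4.86% of all tested genes. The 1 that rose was Pdpr, the regulatory subunit of the phosphatase. It lay at 70.4 CPM in high fat A, 65.6 in B, 71.9 in F and 72.1 in G, and at 58.3 in control I, 54.6 in J, 58.5 in L and 56.5 in M. The diets did not overlap, and the log2 fold change was 0.30 ± 0.05 (SE; edgeR adjusted p = 0.0082). The authors' deposited table of gene symbols gave it a fold of 1.23. Its call ended when control J and high fat G were both left out (adjusted p = 0.060 in edgeR). The lipoylation genes Lias, Lipt1 and Lipt2, the binding protein gene Pdhx and the mitochondrial pyruvate carrier genes Mpc1 and Mpc2 did not pass, with log2 changes from -0.20 to 0.04. Pdha2, the testis copy of the alpha subunit, had a mean of 0.011 CPM on the high fat diet and was at 0 on the control diet, too low to test.

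Among 13 genes of other fates of pyruvate, 3 rose and 10 did not pass, while 4.86% of all tested genes rose and 5.13% fell. Pcx, pyruvate carboxylase, which feeds pyruvate into glucose synthesis, went from 787 ± 67.8 to 1094 ± 90.6 CPM (SD, n = 4 for each; adjusted p = 0.0062 in edgeR). Ldhd, the D-lactate dehydrogenase, went from 693 ± 121 to 1061 ± 131 CPM (SD, n = 4 for each; adjusted p = 0.012 in edgeR). Me1, the cytosolic malic enzyme, rose by 0.29 on the log2 scale, but only 2 of the 8 fits that each left out 1 library called it, and edgeR's adjusted p reached 0.113 when control I was left out. The count was 2 without high fat A or F or control I or L, and 1 with control J and high fat G both left out. In the last of these fits 1.66% of all tested genes rose. The L-lactate dehydrogenase genes Ldha and Ldhb had log2 changes of 0.07 and -0.05.

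Of 12 genes listed with the sister dehydrogenases, systems that use the same Dld, 1 rose, 3 fell and 8 did not pass. The shares over all tested genes were 4.86% higher and 5.13% lower. Bckdha, the branched-chain alpha subunit, rose by 0.27 on the log2 scale (adjusted p = 0.015 in edgeR). Dbt, the core of the same complex, fell by 0.24 (adjusted p = 0.017), and the glycine cleavage genes Gcsh and Amt fell by 0.34 and 0.22 (adjusted p = 0.011 and 0.038 in edgeR). Bckdk, the branched-chain kinase and a relative of the Pdk family, had a log2 change of -0.03 (adjusted p = 0.78 in edgeR). Fits without a library ended the call of Dbt (without high fat F, adjusted p = 0.0503) and that of Amt in 6 of 8, where the highest edgeR adjusted p was 0.105 (control I left out). The total of 4 called became 2 without high fat F and 0 with control J and high fat G both left out. Of all tested genes, 4.99% and 2.83% were called in these fits.

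Of 14 nuclear factors known to act on Pdk4 or its relatives, 2 rose and 12 did not pass, while 4.86% of all tested genes rose. Ppara, the fatty acid receptor, lay at 294 CPM in high fat A, 301 in B, 295 in F and 298 in G, and at 220 in control I, 202 in J, 194 in L and 236 in M. The 4 high fat values of Ppara were thus close together, unlike those of Pdk4. The log2 fold change of Ppara was 0.48 ± 0.06 (SE; edgeR adjusted p = 0.00235). Lpin1, a coactivator of this receptor and a phosphatidate phosphatase, rose by 0.38 (adjusted p = 0.014). It lost its call without control J and high fat G (adjusted p = 0.085 in edgeR). Foxo1, Foxo3 and the glucocorticoid receptor gene Nr3c1 did not pass, with log2 changes of 0.21, -0.01 and -0.04.

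Among 20 tested genes of a list of 22 PPARalpha targets, 8 rose and 12 did not pass, with no fall. The shares over all tested genes were 4.86% higher and 5.13% lower. An unadjusted p below 0.05 (edgeR) was reached by 11 of the 20 and by 27.4% of all tested genes. In the other lists it was reached by 7 of 12 sister dehydrogenase genes and 7 of 13 genes of other fates of pyruvate. It was also reached by 8 of the 16 glucocorticoid and FOXO targets below, 5 of 14 nuclear factors and 2 of 7 partners. The median log2 change of the PPARalpha targets was 0.43, beside -0.0023 over all tested genes. Plin5, a lipid droplet protein gene, lay at 13.6 CPM in high fat A, 18.4 in B, 9.00 in F and 12.2 in G, and at 5.75 in control I, 3.35 in J, 5.61 in L and 2.90 in M. High fat B was the highest and F the lowest of its diet, as for Pdk4, and the log2 fold change was 1.57 ± 0.25 (SE; adjusted p = 0.0053 in edgeR). Ucp2, a mitochondrial carrier gene, rose by 1.07 on the log2 scale and Cpt1a, which gates fatty acid entry into mitochondria, by 0.44. None of the 20 had as large a log2 change as Pdk4. Those that did not pass included Cyp4a14 at 1.59, Cyp4a10 at 0.06, Hadha at 0.01 and Cpt1b at -0.14. The number called was 5 without control J and 3 with high fat G left out too. In these fits 2.84% and 1.66% of all tested genes were called as higher. With those 2 libraries left out, Ldhd, Gcsh, Bckdha, Dbt, Trib1 and Fbxo32, at 0.0534 to 0.0729, also no longer passed (edgeR adjusted p). Of 16 glucocorticoid and FOXO targets 4 rose, Pck1, Dusp1, Trib1 and Fbxo32, by 0.71, 0.98, 0.58 and 0.42 on the log2 scale. Only Tsc22d3, a glucocorticoid target, fell, by 0.39, and 11 did not pass. The glucocorticoid targets Fkbp5 and Per1 had log2 changes of 0.05 and 0.16. Larger were those of Igfbp1, G6pc and Irs2, at 1.01, 0.38 and 0.39, which did not pass either. The median log2 change of these 16 genes was 0.16. The count of rises was 2 with control J and high fat G left out, when 1.66% of all tested genes rose. That of falls was 0 without high fat B, F or G or control I or J.

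**Figure D4:**
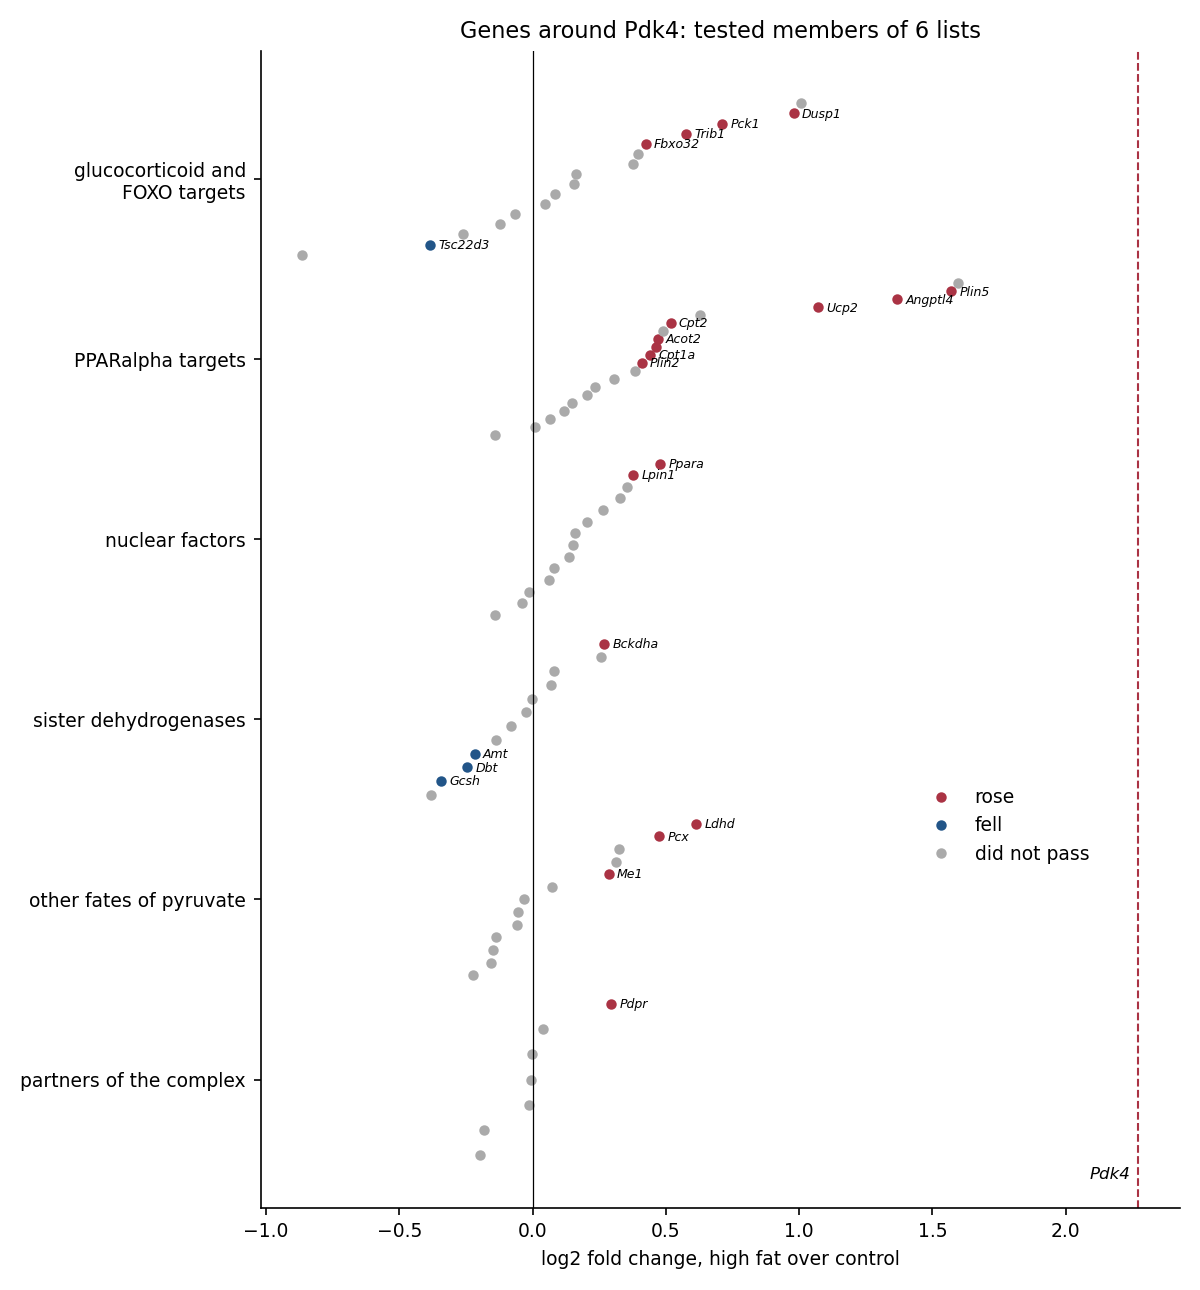
Log2 fold change, high fat over control, of each tested gene of 6 lists around Pdk4, coloured by its call in the edgeR fit, with Pdk4 itself as a dashed line at 2.27. The PPARalpha targets hold 8 rises of 20 tested, up to 1.57 for Plin5, and the partners of the complex hold 1 of 7, Pdpr. Over all tested genes, 4.86% rose.

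The genes most like Pdk4 over the 8 libraries, by Pearson r of log2(CPM + 0.5) among 12252 genes, were Mlycd, Pnpla7, Enpp2, Slitrk4, Mogat1 and Hbegf, with r from 0.97 to 0.99. Mlycd, malonyl-CoA decarboxylase, which lifts the brake of malonyl-CoA on fatty acid entry into mitochondria, ranked the 8 libraries exactly as Pdk4 did (r = 0.99, Spearman rho = 1). It lay at 71.9 CPM in high fat A, 74.2 in B, 64.2 in F and 69.3 in G, and at 61.3 in control I, 59.4 in J, 55.7 in L and 57.5 in M. Its own log2 change was only 0.26 (adjusted p = 0.022 in edgeR), a call lost without high fat A or B or control L (edgeR adjusted p at most 0.0603). Since both genes were higher on the high fat diet, such values partly restate the diet.

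Taking each library as its deviation from the mean of its diet, the genes most like Pdk4 were Rbm25, Kcns3, Rars, Med7, Ftsj3 and Txnip, with r from 0.97 to 0.99. Txnip, a glucose-responsive gene that restrains glucose uptake, was the only one of the 6 with a higher mean on the high fat diet. It lay at 473 CPM in high fat A, 540.4 in B, 289 in F and 333 in G, and at 303 in control I, 267.5 in J, 236 in L and 226 in M. High fat A and B were thus highest for Txnip as for Pdk4, while high fat F lay below control I. Its log2 change was 0.66 (edgeR adjusted p = 0.0381), but only 2 of the 8 fits that each left out 1 library called it, with 0.0891 as the highest adjusted p (control L left out). Ftsj3, a ribosomal RNA processing gene, fell by 0.28 (edgeR adjusted p = 0.0347), and 3 of those 8 fits called it. These likenesses are descriptions over 8 libraries that share their normalization, picked as the highest of many genes, and carry no test.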

How the data were processed

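RNA of the outer renal cortex was prepared, per the labels, as ribosomal-depleted TruSeq libraries from 1 ug of total RNA. The tools named for mm10 are CASAVA 1.8.2 and RSEM 1.2.9, per the submitters' processing notes. The authors deposited expected counts for each symbol, FPKM values, and lists of genes with a fold (a ratio between diets) and a score, the posterior probability of equal expression, whose tool the sources used here do not name. Expected counts were rounded, Rn45s was removed, and genes were tested with edgeR 4.0.16 in R 4.3.3 (filterByExpr, TMM, quasi-likelihood F test, diet as the only term). Calls needed an adjusted p (Benjamini-Hochberg) below 0.05. SE is the log2 fold change over the square root of F, and 95% intervals use the t quantile of the fit. Alternatives were DESeq2 1.42.0, limma 3.58.1 (voom, and log2 FPKM with pseudocounts of 0.1 and 1, mean of at least 0.5), other filters and thresholds, and leaving out libraries; rescaled FPKM was added after the data were seen. The fit was also run on counts simulated from its own estimated means and dispersions, which says nothing of whether its model holds. The members and gene lists were chosen with earlier results of these data known. Named list genes are up to the 4 called genes of smallest p, and other list genes given with values were chosen after these were seen; genes like Pdk4 had a mean of at least 1 CPM, without predicted genes. Of these list genes, 1 is not reported here. Positions are GENCODE M21 gene bounds (GRCm38). Of 10 members, 9 were in the promoter table.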

Additional observations from a re-analysis of the deposited data

Results flagged for a closer look

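Pdp1 in control J, at 9.26 CPM, stood far above the other 3 control libraries, which lay between 6.33 and 6.77 CPM. It was the only such case among the 20 sets of 4 libraries looked at (10 genes on 2 diets), where chance gives about 1 in 20. Control J is also the library with 50.3% of its counts from Rn45s and rests on 119 expected counts of Pdp1.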

How the results depend on the processing

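No paired analysis was possible because the letters that name the libraries differ between the diets. Pdk4 kept its direction and its call under all 19 other fits, with log2 fold changes from 1.79 to 2.54 and adjusted p up to 0.035 (robust edgeR fit). The number of members called fell from 2 to 1, through Pdk3, with log2(FPKM + 0.1), log2(FPKM + 1), rescaled FPKM, an adjusted p under 0.01 and without control I, and was 1 to 2 over the fits without a library. Pdk3 had adjusted p = 0.058 with rescaled FPKM (limma) and log2 changes of 0.43 to 0.70 over all fits. In the deposited FPKM, which are scaled with Rn45s included, control J is low throughout, and limma called 91 and 98 genes at pseudocounts of 0.1 and 1 against 1469. There Pdhb turned to 0.025 and 0.024, Dlat to 0.13 and 0.12 and Dld to 0.099 and 0.098 on the log2 scale. Pdk1 turned to -0.0018 without control M. The number of called genes among all tested was 812 with rescaled FPKM and 330 and 2547 at adjusted p below 0.01 and 0.1. Leaving out high fat A, F or G gave 934, 739 and 908 calls, leaving out control I or J gave 795 and 801, and leaving out both control J and high fat G gave 417. Without a single library, the log2 difference between the diets was 1.803 to 2.28 for Pdk4 over Pdk1, 1.53 to 2.20 for Pdk4 over Pdk2 and 1.24 to 1.91 for Pdk4 over Pdk3. The p was then 0.0571, the smallest that 35 splits allow, so these fits say nothing of the threshold. Of the 6 genes most like Pdk4 by Pearson r, 2 were among the 6 by Spearman rho, a count that rests on how ties were broken. Pnpla7, Mogat1 and Hbegf shared a rho of 0.976, and of these only Hbegf was counted.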
